A study of Mus musculus with 1279 samples.

Results

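Cluster 4 was 1 of 8 groups into which the study had divided single cells of the mouse heart. Its members were found by the cluster number in the sample labels, which gave 18.2% of 1279 cells: 69 and 58 on 2 of the 3 plates of C57BL6, 53 of PdgfrbGFP, 13 of Cspg4dsRED and 40 of Acta2GFP. The study placed clusters 1 to 5 among fibroblasts and took cluster 1 as probable valve interstitial cells. Cluster 4 was therefore compared mainly with the 623 cells of clusters 2, 3 and 5.

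All cells came from hearts of male mice aged 10-20 weeks. Their libraries were made by Smart-seq2, which reads whole transcripts from cells sorted into wells and has no molecular identifiers. C57BL6 cells had been sorted with antibodies against PDGFRα or PDGFRβ. The PdgfrbGFP, Cspg4dsRED and Acta2GFP strains carried transgenes in which a fluorescent protein is driven by regulatory sequence of the named gene, and were sorted on it. CD31-positive cells were excluded, and elastase was added when Acta2GFP hearts were dissociated. Each reporter strain was 1 plate. The labels named no animal, so counts were summed per strain and the 4 strains served as replicates. Where 4 values are listed, they are in the order C57BL6, PdgfrbGFP, Cspg4dsRED and Acta2GFP. Strain, sort and plate cannot be told apart, and p-values measure only the spread between these sums.

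Fibroblasts of the heart make and remodel the collagen-rich matrix between muscle cells. Those in the adventitia and fascia around vessels and muscle bundles are known for surface proteins such as CD34, DPP4 and LY6A and for the secreted peptidase inhibitor PI16. Those within the muscle lie beside capillaries and are known for basement membrane genes and lipoprotein lipase.

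The 6 markers that stand for cluster 4 encode proteins of different kinds. Nbl1 (chromosome 4, 139082284 to 139092993) encodes a secreted antagonist of bone morphogenetic proteins. Prg4 (chromosome 1, 150449412 to 150466165) encodes lubricin, a proteoglycan of joint and tendon surfaces. Mfap4 (chromosome 11, 61485431 to 61488900) encodes a glycoprotein of microfibrils and elastic fibres. Pamr1 (chromosome 2, 102550012 to 102643041) encodes a secreted peptidase-domain protein linked to muscle regeneration. Cd200 (chromosome 16, 45382135 to 45409053) encodes a membrane ligand for a receptor on myeloid cells, and Scara3 (chromosome 14, 65919394 to 65953935) a member of the class A scavenger receptor family. Coordinates are of GRCm38.

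Promoter sequence from RefSeq (GRCm38.p6) was at hand for 2 of the 6 markers, Nbl1 at chr4:139092921-139093220 and Cd200 at chr16:45409004-45409303, both on the minus strand. Each spans the transcription start site, most of it upstream. They are shown because the summed levels of both genes were higher in cluster 4, and capitals mark matches to the motifs named after them.
Nbl1: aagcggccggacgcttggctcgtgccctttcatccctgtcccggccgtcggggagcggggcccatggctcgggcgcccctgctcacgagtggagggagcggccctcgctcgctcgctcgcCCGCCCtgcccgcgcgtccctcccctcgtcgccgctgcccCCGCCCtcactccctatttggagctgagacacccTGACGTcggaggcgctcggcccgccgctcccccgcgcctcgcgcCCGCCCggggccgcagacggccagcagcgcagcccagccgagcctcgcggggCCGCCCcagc
Cd200: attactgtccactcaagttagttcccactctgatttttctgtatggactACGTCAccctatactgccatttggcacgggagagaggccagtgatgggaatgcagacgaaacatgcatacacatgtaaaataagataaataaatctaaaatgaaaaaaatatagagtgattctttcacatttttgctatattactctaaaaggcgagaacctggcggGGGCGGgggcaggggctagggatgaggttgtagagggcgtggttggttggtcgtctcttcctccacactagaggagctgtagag
Both strands were searched for the GC box GGGCGG, the CCAAT box CCAAT, the TATA box TATAAA and the cyclic AMP response element core TGACGT. Both promoters held GGGCGG, as did 35.7% of all 32851 promoters, and both held TGACGT, as did 7.51%. Neither held CCAAT, present in 37.4% of promoters, or TATAAA, present in 13.6%. The GC content was 78.3% for Nbl1 and 45% for Cd200, against a median of 52.7%.

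A cell of cluster 4 held 50417 to 1249955 counts outside the spike-ins (median 349820) and 1626 to 9383 detected genes (median 4644). The strain medians were 358870, 368780, 356000 and 278290 counts, against 287080, 273820, 461780 and 285290 in clusters 2, 3 and 5. Cluster 4 was deeper in 2 of 4 strains, by 13492 ± 90704 counts over all (SD), with an exact sign-flip permutation p of 1 (two-sided). Median detected genes were higher in cluster 4 in 3 of 4 strains and the spike-in and mitochondrial shares lower in 3 of 4. Their exact permutation p-values were 0.25, 0.25 and 0.375 (0.5 each after adjustment over 4 measures), and 4 strains cannot reach 0.05 in this test. The sums of cluster 4 cells held 4766209 to 45312928 counts, and those of clusters 2, 3 and 5 held 4976272 to 114735443. The smallest comparator, Cspg4dsRED, had 10 cells, and 3 counts in it equalled 0.603 CPM, the count scaled to a common library size.

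The label was set beside marker genes. The summed level of 5 fibroblast markers (Pdgfra, Col1a1, Dcn, Lum and Dpt) was 10200 to 10865 CPM over the strains in cluster 4, against 103.1 to 640.6 in cluster 7 and 445 to 3113 in cluster 8. The 5 mural markers summed to 60.7 to 185.1 CPM in cluster 4 and to 7718 to 13195 in cluster 7. Endothelial markers summed to 140.4 to 316.7 CPM, of which the angiopoietin receptor gene Tek made 149.5 on average, immune markers to 0.770 to 31.2 and cardiomyocyte markers to 35.5 to 105.1. Of 9 mesothelial markers, 6 had no count in cluster 4, and the list summed to 0.0513 to 1.05 CPM. The markers of valve interstitial cells summed to 417 to 739 CPM in cluster 4 and to 6302 to 7531 in cluster 1. Of these, Comp made up 282.5 ± 84.6 CPM in cluster 4, and Wif1, a secreted Wnt inhibitor, 2.76 ± 3.12. The order of these sums went with the label. Cells had been sorted on such markers, cells with endothelial or immune signatures had been removed, and the clusters came from these counts. The sums therefore describe the cluster and are no test of its label. The medians of these lists against clusters 2, 3 and 5 together lay between -0.90 (mural) and 0.39 (cardiomyocyte) on the log2 scale where 3 genes or more were tested, with Comp the only member without overlap. Against single neighbours the endothelial median was 2.12 for cluster 2, 1.115 for cluster 3, 0.442 for cluster 5 and -0.408 for cluster 1, with 4 genes tested in each. Pecam1 was higher without overlap against clusters 2 and 5 (backgrounds 2.69% and 18.5%), and Tek against clusters 5 and 1 (18.5% and 4.85%). Other lists moved as well, the smooth muscle median to -2.274 against cluster 3. The part of other cells in the results below was not tested.

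All 6 markers were higher in cluster 4 than in the pooled cells of clusters 2, 3 and 5 in 4 of 4 strains, without overlap of the sums. The mix of this pooled comparator, used throughout, differed by strain. Most of its cells were of cluster 2 in Cspg4dsRED and Acta2GFP and of cluster 5 in PdgfrbGFP, while cluster 5 was the largest part in C57BL6. With equal weight to clusters 2, 3 and 5, Scara3 was higher in 3 of 4 strains and the other markers in 4 of 4. Because the study had drawn its clusters from these very counts, the differences describe the cluster and are no test of it. Nbl1 stood at 779, 742, 576 and 569 CPM, against 169.1, 142.6, 240.9 and 110.9 in clusters 2, 3 and 5. The lowest sum of cluster 4 was thus over the highest of the comparator, and the fitted log2 difference was 2.02 ± 0.27 (SE, n = 4).
Prg4 was at 229.03, 237.4, 407 and 385 CPM in the same strains and at 23.7, 73.5, 27.5 and 33.4 in the comparator. Its log2 difference was 2.96 ± 0.44 (SE, n = 4), and the sums of Cspg4dsRED and Acta2GFP lay over those of C57BL6 and PdgfrbGFP.
Mfap4 was at 1728, 1769, 1705 and 1314 CPM, against 841, 617, 521 and 514 (log2 difference 1.39 ± 0.22, SE, n = 4). Acta2GFP was its lowest strain on both sides.
Pamr1 was at 253.7, 310.8 and 169.95 CPM in C57BL6, PdgfrbGFP and Cspg4dsRED and between the first 2 of these in Acta2GFP, against 62.7, 52.9, 60.9 and 103.7 (log2 difference 1.87 ± 0.31, SE, n = 4). Its lowest cluster 4 sum, in Cspg4dsRED, came from 13 cells.
Cd200 was at 169.3, 156.2, 398 and 141.6 CPM, against 38.2, 32.5, 53.9 and 36.9 (log2 difference 2.44 ± 0.39, SE, n = 4). The Cspg4dsRED sum stood apart from 3 close values.
Scara3 was at 183.9, 168.3, 161.8 and 191.7 CPM, against 66.03, 41.3, 40.4 and 36.3 (log2 difference 1.94 ± 0.29, SE, n = 4). Its 4 cluster 4 sums lay closer together than those of the other markers, with an SD of 13.8 CPM.

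**Figure D1:**
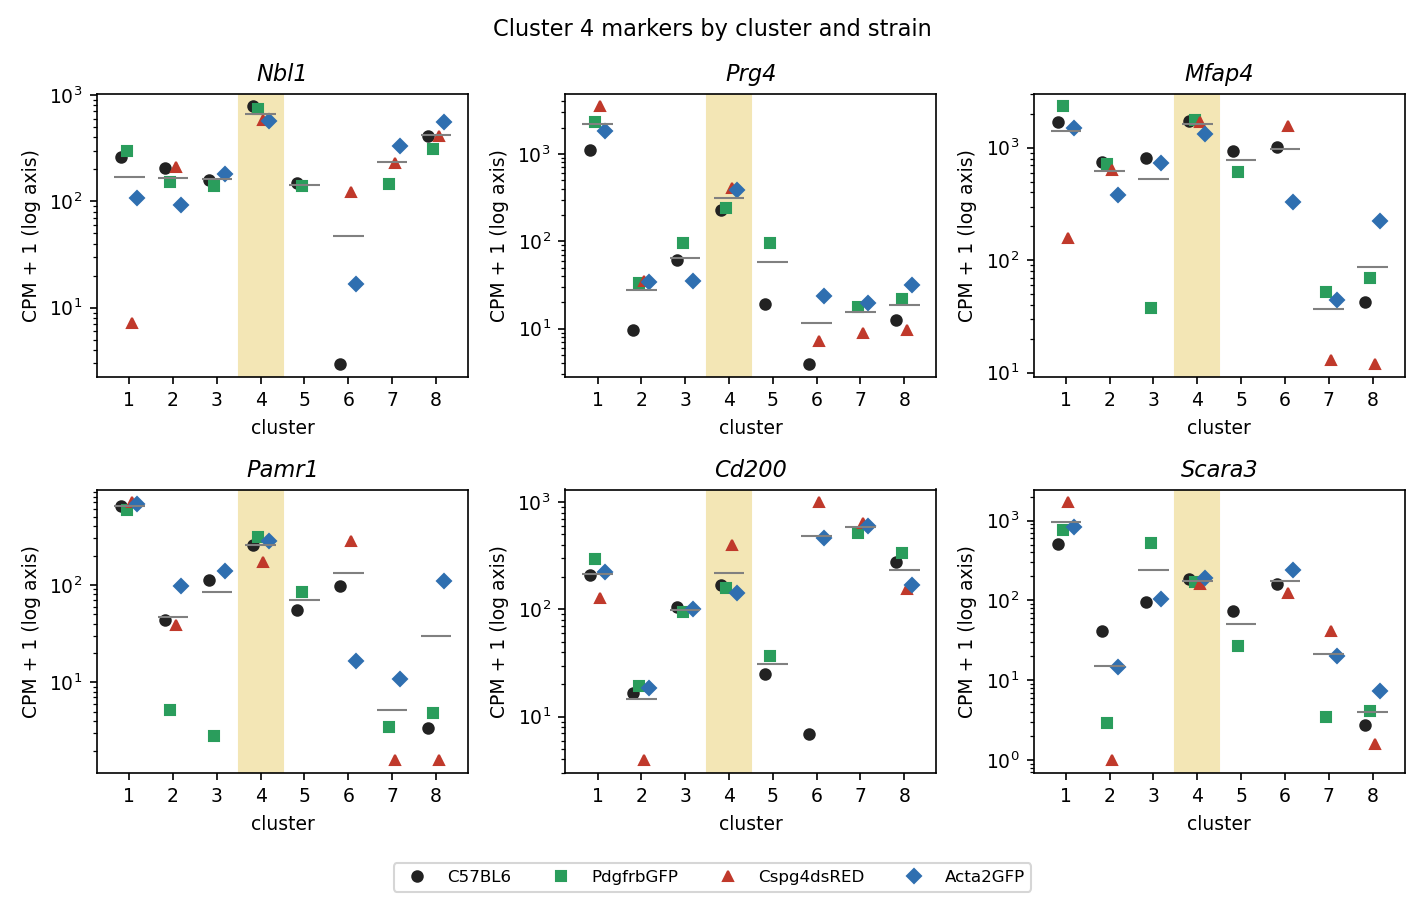
Level of the 6 markers in clusters 1 to 8. Each point is the sum of 1 strain with 3 cells or more (CPM + 1, log axis), grey bars are means over strains and the shaded band is cluster 4. Nbl1 lies at 569 to 779 CPM in cluster 4 and at 110.9 to 240.9 CPM in clusters 2, 3 and 5 combined, while Prg4, Pamr1 and Scara3 are higher in cluster 1 than in cluster 4.

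Over the same comparison, 0 of 14104 genes had an adjusted p under 0.05 in edgeR's quasi-likelihood test (0.0%), 670 had an unadjusted p under 0.05, and DESeq2 called 1.29%. The adjusted p of the 6 markers ran from 0.0779 to 0.0882 in edgeR. Sums that did not overlap and were higher in cluster 4 were found for 1.95% of genes and lower ones for 2.03%, 3.98% in all. The markers had been chosen as marks of this cluster, so nothing was read from their count of 6 of 6. Within each of 5 plates the markers were also higher in cluster 4, with log2 differences from 0.72 (Mfap4) to 3.84 (Prg4). When cluster 1 was added to the comparator, the differences of Prg4 and Scara3 became -0.30 and -0.12.

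Single cells of cluster 4 differed widely in these genes. Nbl1 reached 100 CPM in 75.5% of cluster 4 cells (95% Wilson interval 69.6 to 80.6), with a median of 655 CPM. The intervals pool the cells of all strains and cover counting error only, while the share by strain ran from 64.2% to 79.5%. Mfap4 did so in 74.2% (68.3 to 79.4), with a median of 1629 CPM. The level of 100 CPM was set after the values were seen.
The other 4 markers were carried by a minority of cells. Pamr1 reached 100 CPM in 38.2% (32.2 to 44.6), Cd200 in 30.5% (24.9 to 36.7), Scara3 in 30.04% (24.5 to 36.2) and Prg4 in 29.6% (24.1 to 35.8). Over strains these shares ran from 34.6% to 50%, 22.6% to 46.2%, 20.8% to 45% and 22.6% to 46.2%. The median cell had 10.4 CPM of Prg4, while the highest had 4454. In clusters 2, 3 and 5 the shares of these 4 markers were lower, at most 20.5% (Cd200 in cluster 3). In cluster 1 they were higher, at 52.9% for Pamr1, 32.9% for Cd200, 68.6% for Scara3 and 70% for Prg4. Cd200 reached 100 CPM in 87.2% of cluster 6 and 75.4% of cluster 7 cells. In cluster 6 Pamr1 did so in 48.7%, Scara3 in 38.5% and Prg4 in none.
At least 3 markers were at this level in 58.8% of cluster 4 cells, and all 6 in 6 cells. By strain this share was 58.3%, 45.3%, 76.9% and 72.5%, against 10.8%, 3.73%, 10% and 18.5% in clusters 2, 3 and 5. In cluster 1 it was 70% and in cluster 6 66.7%.
The share of cells with any count was less telling: Scara3 had a count in 56.2% of cluster 4 cells but also in 33.2% of cluster 8 cells, where its mean was 2.94 CPM.

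The neighbours of cluster 4 differed by marker. Against cluster 2, all 6 markers were higher without overlap (background 2.69% higher and 4.69% in either direction), Cd200 by 3.95 ± 0.60 and Prg4 by 3.52 ± 0.47 on the log2 scale (SE, n = 4). Against cluster 3, where 10.9% of all genes were higher and 3.21% lower without overlap, Nbl1 was higher by 1.97 ± 0.35 (SE, n = 3), but Cd200 only by 0.50 ± 0.55, at 155.7 ± 13.9 CPM against 98.7 ± 4.98 (SD). Scara3 overlapped there: cluster 4 had 181.3 ± 11.9 CPM and cluster 3 238.1 ± 242.4 (SD, n = 3), with 518 CPM in PdgfrbGFP.
Cluster 5 had 3 cells or more in 2 strains. All 6 markers were higher in cluster 4 without overlap, as were 18.5% of all genes, while 15% were lower and 33.5% did not overlap in either direction. Nbl1 was at 761 ± 25.96 CPM in cluster 4 and at 142.5 ± 6.22 in cluster 5 (SD, n = 2), and the 6 log2 differences ran from 1.13 for Mfap4 to 2.36 for Cd200.
In cluster 1, without overlap for 4.85% of genes higher in cluster 4, 2.38% lower and 7.23% in all, Nbl1 was lower than in cluster 4, at 167.6 ± 135.5 CPM (SD, n = 4). Prg4 was at 2181 ± 1000 CPM there, and its log2 difference, cluster 4 minus cluster 1, was -2.78 ± 0.36. For Scara3 the difference was -2.39 ± 0.35 and for Pamr1 -1.34 ± 0.28. Mfap4 and Cd200 overlapped between clusters 4 and 1, with log2 differences of 0.16 ± 0.56 and -0.00 ± 0.44 (SE, n = 4). Of the 6 genes, Nbl1 was thus the one whose sums were higher in cluster 4 than in each of clusters 1, 2, 3 and 5, in every strain compared, and it had 422 ± 102.2 CPM in cluster 8 (SD, n = 4).

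Of the adventitial and progenitor fibroblast list, 7 genes were higher in cluster 4 without overlap, and edgeR called none. Of its 15 genes 14 passed the filter on low counts. All 14 had a fitted difference over 0, and the 7 of 14 without overlap stood beside a background of 1.95%. The median log2 difference was 0.94, against 0.00 over all 14104 genes, and the median within a strain ran from 0.35 in Cspg4dsRED to 2.15 in Acta2GFP. Without Cspg4dsRED the fitted median was 1.715. Against the single neighbours the median was 0.74 for cluster 2, 3.13 for cluster 3, 1.20 for cluster 5 and 3.51 for cluster 1, with no gene lower without overlap in any of these.
Pi16, the peptidase inhibitor, was at 2012, 2367, 1941 and 2776 CPM, against 696, 882, 1754 and 1099 in clusters 2, 3 and 5. The sums did not overlap, but in Cspg4dsRED the 2 sides were close (log2 difference 1.05 ± 0.27, SE, n = 4).
Cd248, the mesenchymal membrane protein endosialin, was at 1344, 1381, 531 and 1516 CPM, against 297, 382, 38.8 and 148.6. Its log2 difference was 2.43 ± 0.60, and Cspg4dsRED was low on both sides.
Sema3c, a secreted guidance molecule, was at 190.6, 261.4, 131.97 and 345 CPM, against 21.8, 29.3, 0.804 and 10.0 (log2 difference 3.86 ± 0.79). All 4 strains showed the difference.
Ly6c1 (log2 difference 1.82 ± 0.41), Efhd1 (2.82 ± 0.88), Uchl1 (2.91 ± 0.92) and Cd34 (0.61 ± 0.21) completed the 7 genes without overlap. Dpp4, a serine peptidase of the cell surface, was at 46.04 ± 28.3 CPM against 4.47 ± 5.94 (SD, n = 4) and overlapped between the groups of sums, though it was higher in 4 of 4 strains. Pla1a was at 369 ± 123.6 CPM in cluster 4 and at 369 ± 45.5 in the comparator (SD, n = 4), higher in 2 of 4 strains.

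Of the parenchymal fibroblast list, 6 genes were lower in cluster 4 than in clusters 2, 3 and 5 without overlap, and edgeR called none. Of 12 genes 11 passed the filter, all 11 had a fitted difference under 0, and the 6 of 11 without overlap stood beside a background of 2.03%. The median log2 difference was -0.99, and within a strain it lay between -1.06 and -0.81. Against cluster 2 the median was -1.20 (7 of 11 lower without overlap, background 2.0%) and against cluster 5 -1.07 (9 of 11, background 15%).
Against cluster 3 the list was split, with 4 of 11 fitted over 0, Inmt, Smoc2 and Cxcl14 higher (background 10.9%) and 4 genes lower (background 3.21%) without overlap and a median of -0.55. Against cluster 1 it lay the other way: 11 of 12 were fitted over 0, 8 were higher without overlap (background 4.85%), 4 were called (background 0.365%) and the median was 1.98.
Hsd11b1, the enzyme that regenerates active glucocorticoid, was at 198.8, 114.98, 108.05 and 217.6 CPM, against 786, 1179, 865 and 687 in clusters 2, 3 and 5. Every strain showed it, and the log2 difference was -2.48 ± 0.30 (SE, n = 4).
Lpl, lipoprotein lipase, was at 456, 469, 354 and 553 CPM, against 1330, 1803, 1057 and 989 (log2 difference -1.51 ± 0.26). Again no sums overlapped.
Penk, which encodes proenkephalin, was at 176.5, 58.1, 70.7 and 103.6 CPM, against 527, 478, 332 and 283.3 (log2 difference -2.01 ± 0.36). Ms4a4d, Gpx3 and Col4a1 were the others without overlap, at -0.997 ± 0.234, -0.72 ± 0.22 and -0.99 ± 0.24. Tcf21, a transcription factor of cardiac fibroblasts, lay at 335 CPM in cluster 4 and 391 in the comparator on average, lower in 3 of 4 strains.

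**Figure D2:**
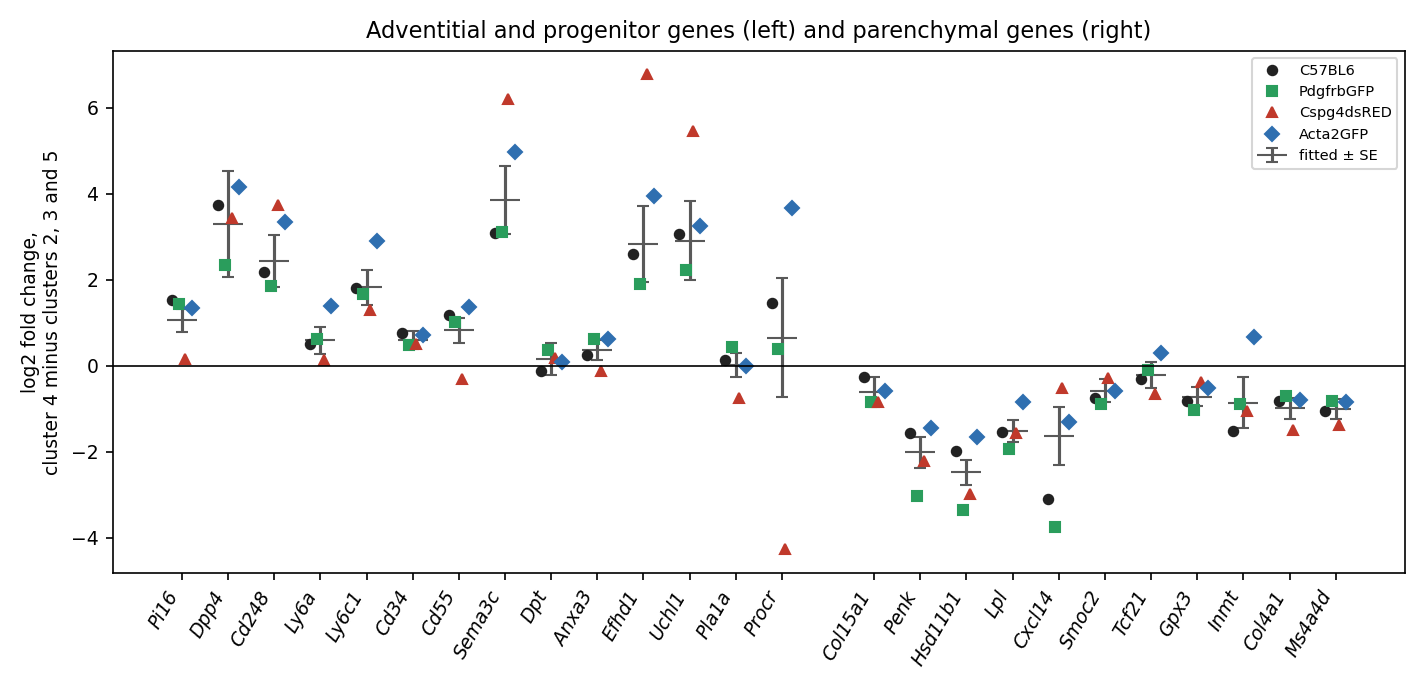
Log2 differences, cluster 4 minus clusters 2, 3 and 5, for the tested genes of the adventitial and progenitor list (left) and the parenchymal list (right). Coloured points are single strains (log2 of CPM + 1) and bars the fitted value ± SE over 4 strains. All 14 fitted values on the left are over 0 and all 11 on the right under 0. Cspg4dsRED, with 10 comparator cells, holds the highest points for Sema3c (6.20) and Efhd1 (6.77).

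Matrix genes differed by kind. Beside the counts that follow, 1.95% of all genes were higher and 2.03% lower without overlap. The fibrillar collagens of the interstitium were close between the 2 sides: Col1a1 was at 2409 CPM in cluster 4 and at 2131 in the comparator, and Col3a1 at 2047 and 1778. The median of the 7 tested was 0.21, with none higher and 1 lower without overlap, Col5a3 at -1.19 ± 0.30.
Of 9 tested collagens of types VI and VIII and fibril-associated collagens, 5 were fitted under 0 (median -0.20), and 2 were higher and none lower without overlap. Within the strains the median was 0.48, 0.612, -0.463 and 0.054, so only Cspg4dsRED lay under 0. Col14a1 was at 473, 278.2, 381 and 293 CPM, against 209.3, 100.5, 170 and 185.5 (log2 difference 1.11 ± 0.26), but overlapped with cluster 3 alone (0.03 ± 0.43, n = 3). Col12a1 was at 50.8 ± 25.1 CPM against 5.40 ± 4.47 (SD, n = 4), also without overlap. Both encode collagens that sit on the surface of fibrils.
Of 19 tested basement membrane genes, 14 had a fitted difference under 0 and 3 were lower without overlap, with a median of -0.49. Lamb1, the laminin β1 chain, was at 310, 168.9, 116.4 and 561 CPM, against 646, 672, 995 and 1344 (log2 difference -1.67 ± 0.44). Nid2, a nidogen that links laminin to collagen IV, was at 49.2 ± 18.8 CPM against 181.6 ± 83.3 (SD, n = 4), and Col4a1, also in the parenchymal list, was the other. This too varied by neighbour: against cluster 3, 13 of 19 were fitted over 0 and 6 were higher (background 10.9%) and none lower without overlap (median 0.14), and against cluster 1, 17 of 20 were fitted over 0, 12 were higher without overlap (background 4.85%) and 4 were called (background 0.365%, median 1.97).
Of 23 tested elastic fibre and microfibril genes, 5 were higher without overlap and none lower, while the median was 0.16. Besides Mfap4 they were Mfap5 (0.82 ± 0.24), Eln, which encodes elastin (0.52 ± 0.21), the latent TGF-β binding protein gene Ltbp2 (2.74 ± 0.86) and Emilin2 (1.91 ± 0.40). Emilin2 was at 120, 201.2, 133.2 and 252.3 CPM, against 69.2, 56.1, 29.3 and 32.9. By neighbour, 3 of 22 were higher and none lower without overlap against cluster 2 (backgrounds 2.69% and 2.0%). Against cluster 3, 7 of 22 were higher (10.9%) and Fbln1 and Fbln5 lower (3.21%). Against cluster 5, 11 of 23 were higher (18.5%) and 6 lower (15%). Eln was without overlap against none of clusters 2, 3 and 5 alone, and Mfap5 overlapped with cluster 2.
Of 21 tested matricellular and adhesive genes, 6 were higher without overlap and 2 lower. Fn1, which encodes fibronectin, was at 140.9, 210, 524 and 338 CPM, against 63.5, 67.8, 54.3 and 83.5 (log2 difference 2.18 ± 0.40). Comp (2.73 ± 0.63), Thbs4 (3.00 ± 0.92), Vcan (1.03 ± 0.23), Ccn3 and Prg4 were the others that were higher.
Thbs2, a thrombospondin, was lower, at 141.8, 299, 165.3 and 362 CPM against 611, 546, 775 and 1116 (log2 difference -1.63 ± 0.35), as was Sparcl1 (-0.45 ± 0.19). Postn, which encodes periostin, was higher in 4 of 4 strains but overlapped, since the Acta2GFP comparator reached 610 CPM. Comp was also in the list of cluster 1 markers.
Of the other matrix lists, the 10 tested small leucine-rich proteoglycans had 1 gene without overlap, Ecm2, lower (median -0.19). The 27 tested proteases and inhibitors had Pamr1 higher and Mmp19, Htra1 and Serpine2 lower (median -0.16), and the 18 tested integrin subunits had Itga8 lower (median 0.47).

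Signalling genes and the lists that follow were read against clusters 2, 3 and 5, where 3.98% of all genes were without overlap. In each list most members overlapped. The complement list (2 higher and 2 lower of 14) and the glutathione and xenobiotic list (1 higher and 5 lower of 18) lay over that share. The chemokine and transcription factor lists, with 1 gene without overlap each, lay near it. Of 16 tested BMP ligands and antagonists, Nbl1 was higher without overlap and Bmper, a secreted BMP-binding protein, was lower, at 35.99, 16.2, 40.9 and 79.03 CPM against 152.6, 120, 151.5 and 164.6 (log2 difference -1.78 ± 0.43). Both encode extracellular regulators of the same ligands, and the list's median was 0.09.
Tgfb3, a TGF-β ligand, was at 268.6, 256.4, 238.8 and 366 CPM, against 125.7, 155.1, 131.4 and 148.1 (log2 difference 1.01 ± 0.23). Lrrc32, a receptor that docks latent TGF-β, was lower without overlap (-1.42).
Of the insulin-like growth factor binding proteins, Igfbp3 was at 26.4, 48.7, 3.57 and 13.6 CPM, against 344, 328, 440 and 524 (log2 difference -4.10 ± 0.65). Igfbp6 was higher, at 922 ± 71.9 against 607 ± 117.3 CPM (SD, n = 4), without overlap.
Of 14 tested complement genes, C7, a component of the membrane attack complex, was at 363, 273.4, 332 and 349 CPM against 205.7, 124.2, 33.6 and 75.4 (log2 difference 1.58 ± 0.45). Cd59a, an inhibitor of that complex, was also higher (2.99 ± 0.61). C1ra and C1s1, proteases that start the classical pathway, were lower at -0.98 ± 0.26 and -0.87 ± 0.26. Against cluster 5 alone C7 overlapped, while Cd59a was higher and C1ra and C1s1 were lower without overlap.
In the retinoic acid list, Aldh1a2, which makes retinoic acid, was at 58.4, 37.1, 9.65 and 57.6 CPM against 108.9, 183.9, 285.96 and 323 (log2 difference -2.47 ± 0.53), while Rbp4, a retinol carrier, was higher.
Chemokines and cytokines had 1 of 16 tested without overlap, Cxcl1, lower, secreted Wnt antagonists had none of 6, and scavenger and lipoprotein receptors had Scara3 higher and Colec12 lower of 9. Meox1 was the 1 of 21 tested transcription factor genes without overlap, at 387 ± 27.99 against 227.3 ± 37.01 CPM (SD, n = 4). Of 18 tested glutathione and xenobiotic genes, 5 were lower without overlap, among them Gsta3 (-1.29 ± 0.35), and 1, Gsta4, was higher. The chemokine list varied by neighbour. Against cluster 5 alone (2 strains), 10 of 17 were lower without overlap (background 15%) and 2 higher (background 18.5%). Against cluster 1, 6 of 15 were higher (background 4.85%) and none lower, and against cluster 2 none of 16 was without overlap.

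Of 19 tested interferon response and antigen presentation genes, 16 were fitted under 0, with a median of -0.62, and 2 were lower without overlap (background 2.03%). None was called, and against cluster 1 16 of 19 were fitted over 0 (median 0.72). Irf1, an interferon-induced transcription factor, was at 88.3, 59.2, 88.96 and 131.9 CPM against 213.4, 182.1, 252.2 and 160, and Psmb9, an immunoproteasome subunit, at 15.7 ± 5.87 against 46.6 ± 7.84 CPM (SD, n = 4). Of 24 tested immediate early and dissociation stress genes, 19 were fitted under 0 with a median of -0.41, and no gene was without overlap. By neighbour, 18 of 25 were lower without overlap against cluster 5 (background 15%, 2 strains), 3 of 24 against cluster 3 (background 3.21%, 3 strains) and 1 of 24 against cluster 2 (background 2.0%, 4 strains), while against cluster 1 19 of 24 were fitted over 0. Whether the neighbours differed from each other was not tested. Egr1 was at 2199 CPM in cluster 4 and at 3010 in the comparator on average. Spike-in shares were lower in cluster 4 in 3 of 4 strains, at 1.61%, 1.59%, 1.19% and 0.941% against 1.94%, 2.16%, 1.41% and 0.939% at the median, and the part of depth in these lists was not tested. In cells of 200000 to 450000 counts, which left 3 strains, edgeR called 0 genes, 618 had an unadjusted p under 0.05, and no marker turned sign.

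**Figure D3:**
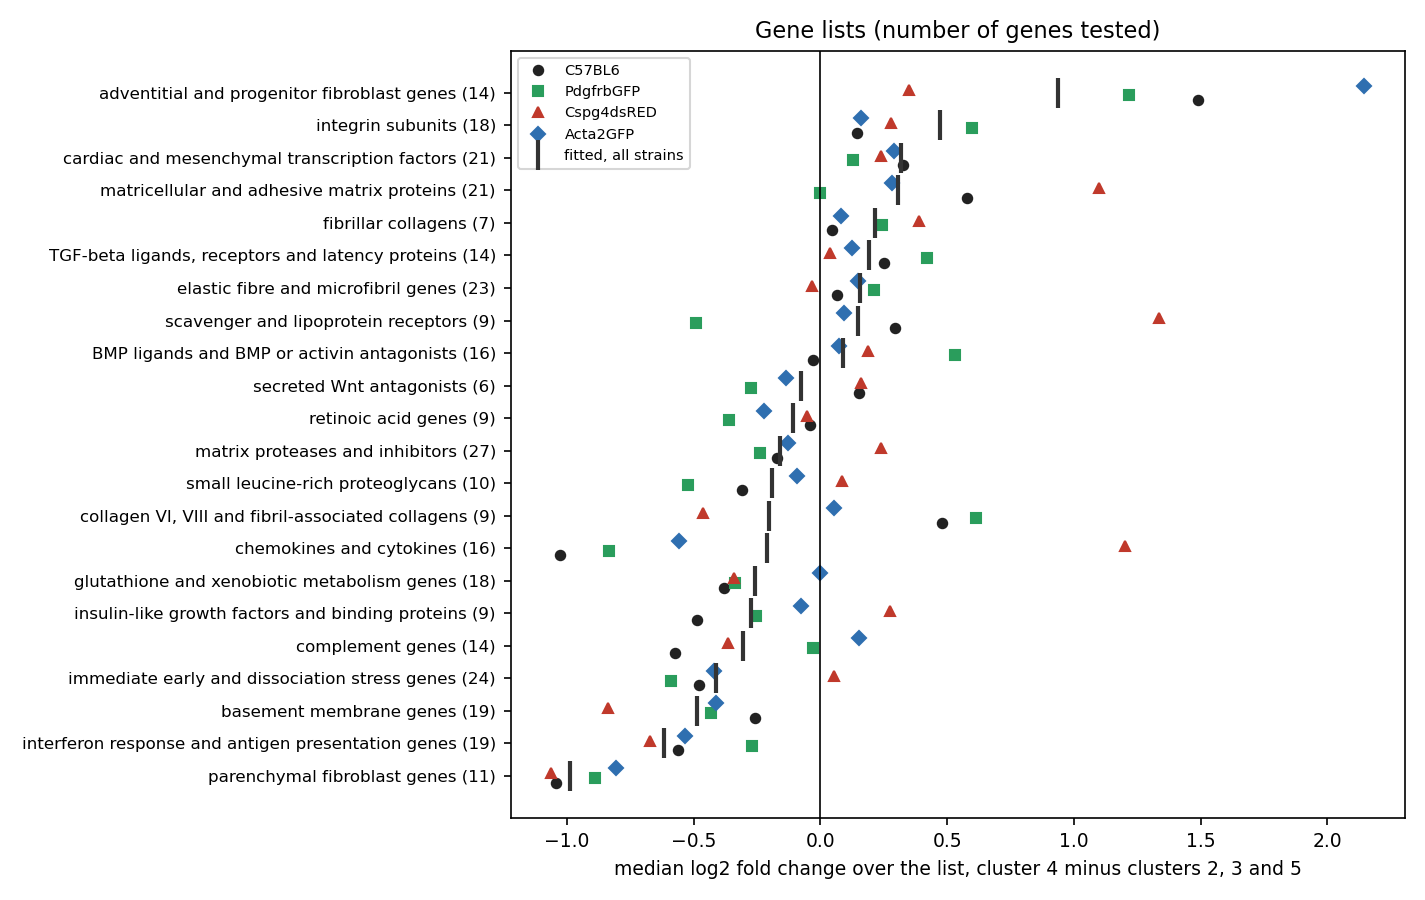
Median log2 difference, cluster 4 minus clusters 2, 3 and 5, over the tested genes of 22 gene lists, with the number tested in brackets. Points are single strains and bars the fitted values over all strains. The adventitial and progenitor list is highest at 0.94 and the parenchymal list lowest at -0.99, and the strains differ most for chemokines and cytokines, from -1.03 to 1.20.

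Beyond the lists, genes were ranked by fitted difference among those without overlap, detected in at least 30% of cells and at 20 CPM on the higher side. This ranking was chosen after the values were seen. The 15 most extreme genes in each direction were taken. Dio2, which activates thyroid hormone, led the higher genes at 75.4, 57.3, 237.7 and 148.6 CPM. In the comparator it was at 3.18, 11.99, 0.00 and 14.6 CPM, the Cspg4dsRED sum holding no count (log2 difference 4.08 ± 1.02, SE, n = 4). All cluster 4 sums were over all comparator sums.
Ackr2, a decoy receptor for chemokines, was at 140, 182.6, 213.4 and 314 CPM against 17.9, 11.01, 0.00 and 26.5 (log2 difference 3.93 ± 0.91). It had no count in the Cspg4dsRED comparator either.
The other higher genes were Sema3c, Myo1d, Ccdc3, Gm26776, Thbs4, Cd59a, Prg4, Efhd1os, Uchl1, Angptl7, Efhd1 and Ltbp2. Gm26776 lies antisense over Ccdc3 and Efhd1os antisense over Efhd1, and with no strand setting stated their reads cannot be told from those of the partner.
Igfbp3 led the lower genes, but against cluster 2 alone, at 45.4, 63.1, 0.246 and 12.7 CPM, it overlapped (log2 difference -0.44 ± 1.19). Next came Ifitm1, an interferon-induced membrane protein, at 3.16 ± 2.55 against 48.2 ± 17.8 CPM (SD, n = 4). Adap2 and its antisense gene Adap2os, Blnk, the alcohol dehydrogenase Adh1, Chn1, Tmem176b, Hsd11b1, Aldh1a2, Adm, Sept4, Ahsg, Slc10a6 and Ifi207 were the rest, of which Ahsg was at 23.2 ± 5.06 CPM in cluster 4 and at 16.3 ± 15.6 in cluster 2 (SD, n = 4). Adm, which encodes the vasodilator adrenomedullin, was at 60.2 ± 32.9 against 309 ± 150.6 CPM (SD, n = 4). It overlapped with cluster 3 alone, where it was at 81.4 ± 72.9 CPM (SD, n = 3).

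**Figure D4:**
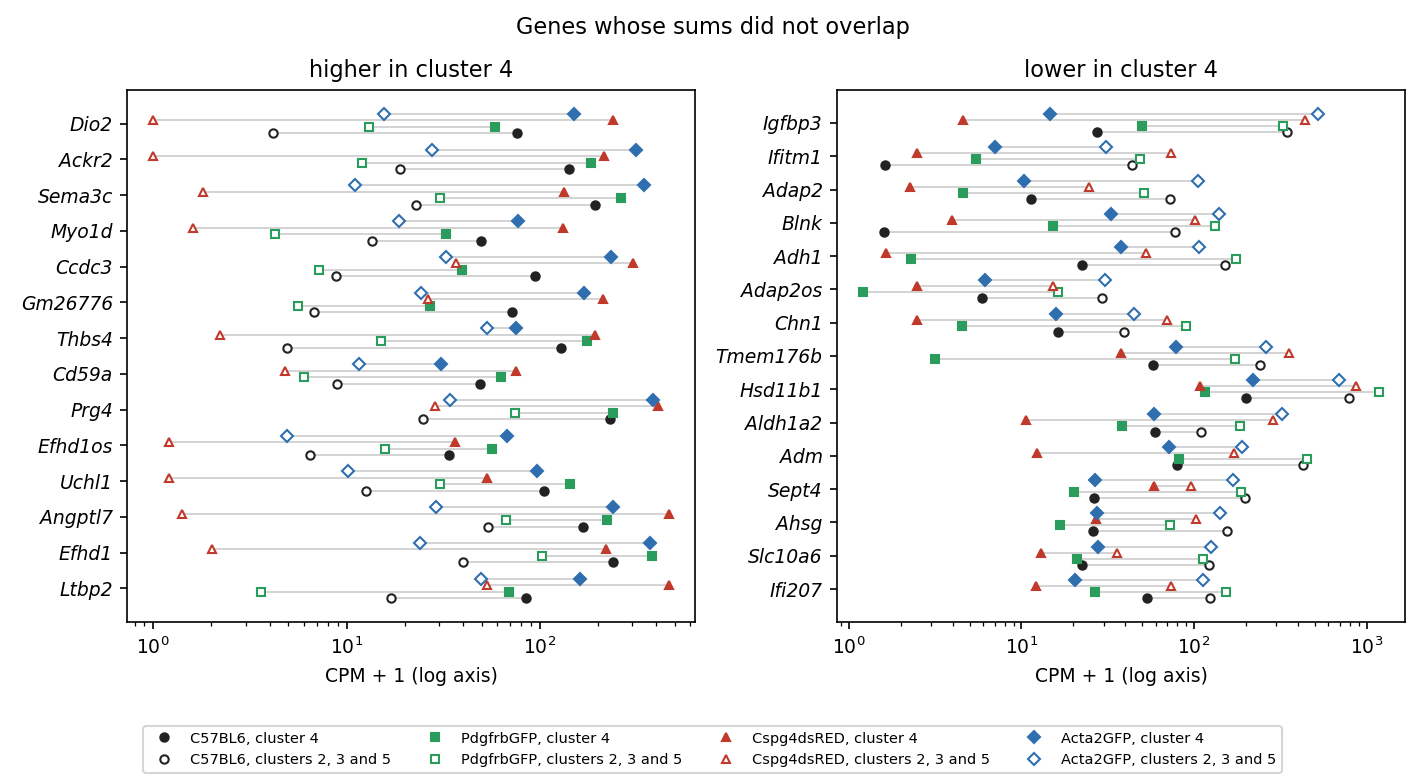
Genes with the largest (left) and smallest (right) log2 differences among those whose sums did not overlap. Filled symbols are cluster 4 and open symbols clusters 2, 3 and 5 (CPM + 1, log axis), with a line joining the 2 sums of a strain. Every filled symbol lies to the right of every open one in the left panel and to the left in the right panel, for Igfbp3 at 3.57 to 48.7 against 328 to 524 CPM.

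Single neighbours gave a few called genes, again as a description. Against cluster 2, 15 of 13351 genes (0.112%) were called by edgeR at an adjusted p of 0.05, of which 12 were higher (0.0899%) and 3 were lower (0.0225%) in cluster 4. Comp, a cartilage matrix glycoprotein, was at 243.6, 388, 306 and 191.9 CPM against 3.66, 4.63, 2.46 and 14.7 (log2 difference 5.45 ± 0.61, SE). Cpe, a carboxypeptidase that matures peptide hormones (3.59 ± 0.52), Csrp2, a LIM-domain protein (2.30 ± 0.32), Cd200 and Prg4 followed by the naming rule.
The 3 lower genes were Hsd11b1 (-2.82 ± 0.29), Lpl (-1.69 ± 0.23) and Col4a1 (-1.42 ± 0.20). Col4a1 was at 338, 286.7, 362 and 424 CPM in cluster 4 and at 905, 750, 1171 and 904 in cluster 2. No gene was called without C57BL6 or without PdgfrbGFP, and 2 without Acta2GFP. With strain as a block in the fit, 6 were lower and 10 higher.
Against cluster 3, 8 of 13439 genes passed (0.0595%), 4 in each direction (0.0298%). With strain as a block in the fit, 33 passed. Fbln2, a fibulin of elastic fibres and vessel walls, was at 1794, 2355 and 2359 CPM in C57BL6, PdgfrbGFP and Acta2GFP against 401, 390 and 247.9 (log2 difference 2.51 ± 0.27, SE). Ackr2 (7.88 ± 1.12), Efhd1 (4.57 ± 0.60) and Adgrd1 (4.09 ± 0.53) were the other higher genes.
Igfbp3 was at 26.4, 48.7 and 13.6 CPM in cluster 4 and at 1293, 4167 and 2125 in cluster 3 (log2 difference -6.58 ± 0.64). Ahsg (-4.26 ± 0.55), Cdc42ep3 (-4.04 ± 0.59) and Apoe, an apolipoprotein (-2.06 ± 0.26), were also lower. Without C57BL6 0 genes were called, and without Acta2GFP or PdgfrbGFP 1 each.
Against cluster 5, with 2 strains, edgeR called 0 of 15521 genes (0.0%), 798 had an unadjusted p under 0.05, and DESeq2 called 1.84%.

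Against cluster 1, 96 of 12607 genes passed (0.761%), 46 higher (0.365%) and 50 lower (0.397%) in cluster 4, and 45 with strain as a block. Scara5, a ferritin receptor, was at 405, 400, 482 and 721 CPM against 5.75, 1.73, 0.00 and 5.85 in cluster 1 (log2 difference 7.05 ± 0.67, SE). Emilin2 (7.41 ± 0.84), Hmcn2 (7.11 ± 0.72), Ifi211 (7.02 ± 1.44) and Pla1a (6.29 ± 0.69) completed the 5 named higher genes. The cluster 1 sum of Cspg4dsRED held 3 cells.
Wif1 was at 0.971, 3.03, 0.00 and 7.05 CPM in cluster 4 and at 1265, 1882, 1491 and 932 in cluster 1 (log2 difference -8.94 ± 0.98). Cyp26a1, which degrades retinoic acid (-9.77 ± 0.85), Rspo3, an activator of Wnt signalling (-9.31 ± 1.30), Uts2r (-8.92 ± 1.15) and Slc25a34 (-8.19 ± 1.11) were the other named lower genes. Leaving out 1 strain gave 21 (without C57BL6), 27 (without Acta2GFP), 41 (without PdgfrbGFP) or 60 (without Cspg4dsRED) called genes.

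The same cluster was then compared between captures, a contrast that the clustering had not used. Cluster 4 cells of the 3 reporter plates were set against those of the 2 C57BL6 plates that held any. In edgeR 0 of 14644 genes had an adjusted p under 0.05 (0.0%), 590 had an unadjusted p under 0.05, and DESeq2 called 72, 59 higher and 13 lower in the reporter strains. Plates did not overlap for 21.1% of genes, and for 8.09% the reporter plates were higher. Of the 6 markers 0 were among these. Nbl1 was at 818 and 722 CPM on the C57BL6 plates and at 742, 576 and 569 on the PdgfrbGFP, Cspg4dsRED and Acta2GFP plates (log2 difference, reporter minus antibody, -0.24 ± 0.26, SE). Prg4 was at 206.6 and 261.8 CPM against 237.4, 407 and 385 (0.58 ± 0.32), and Mfap4 at 1955 and 1396 against 1769, 1705 and 1314 (-0.02 ± 0.26). The other 3 lay between -0.11 ± 0.34 (Scara3) and 0.49 ± 0.48 (Cd200), and the adjusted p of each was 0.997 in edgeR. A p of this size does not show that the captures were alike.
The genes whose regulatory sequence drove the reporters had been used to choose the cells. Acta2 was at 61.6 and 61.3 CPM on the C57BL6 plates and at 107.2, 366 and 394 on the PdgfrbGFP, Cspg4dsRED and Acta2GFP plates, without overlap (2.25 ± 0.55). Pdgfrb was highest on the PdgfrbGFP plate, at 353 CPM, and Cspg4 on the Cspg4dsRED plate, at 47.6 CPM. Markers of other cells moved with the capture: the 4 smooth muscle markers summed to 69.7 and 94.8 CPM on the C57BL6 plates and to 131.6, 505.0 and 532.1 on the reporter plates, and the 5 mural markers to 70.6 and 46.4 against 84.95, 159.3 and 185.1. The 5 immune markers went the other way, at 24.8 and 40.5 CPM against 0.770, 12.4 and 3.13. The 5 fibroblast markers summed to 9999 and 10495 against 10831, 10865 and 10521 CPM, and the other 6 marker lists overlapped. Their part in the differences between captures was not tested.
Among list genes, Postn was at 623 and 434 CPM on the C57BL6 plates and at 1511, 1115 and 1090 on the reporter plates (1.29 ± 0.30, adjusted p 0.997 in edgeR). Kcne4, Oasl2 and F2r were higher and Slc39a1 and Notch2 lower on the reporter plates without overlap, with unadjusted p-values from 0.000987 to 0.00289 in edgeR. They were picked after the values were seen. None had an adjusted p under 0.05 in edgeR, beside 590 genes with an unadjusted p under 0.05 and 21.1% of all genes without overlap.
Of 25 tested immediate early and stress genes 6 were lower (background 13%) and 1 higher without overlap, with a median of -0.51 against 0.03 over all genes. Pi16 and Cd248 overlapped between captures, with log2 differences of 0.23 ± 0.25 and -0.18 ± 0.42.

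The share of cluster 4 among clusters 2 to 5 was 24.2% in C57BL6 (of 525 cells, 95% Wilson interval 20.7 to 28.03) and 24.8% in PdgfrbGFP (19.5 to 30.96). It was 42.6% in Acta2GFP (40 of 94, 33.04 to 52.6) and 56.5% in Cspg4dsRED (13 of 23, 36.8 to 74.4). The 2 C57BL6 plates with cluster 4 cells gave 25% and 23.4%, and the other one held 1 cell, of cluster 2. The intervals of Acta2GFP and Cspg4dsRED lay over those of C57BL6 and PdgfrbGFP. With cluster 1 in the denominator this held for Cspg4dsRED only, as Acta2GFP was at 33.3% (25.5 to 42.2), while the intervals of C57BL6 and PdgfrbGFP reached 27.1 and 28.2. Intervals cover counting error only, and no test between captures was made. As a share of all sorted cells, cluster 4 made up 21.9%, 14.6%, 23.4% and 7.98% of C57BL6, PdgfrbGFP, Acta2GFP and Cspg4dsRED cells, a share that the sort sets.

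**Figure D5:**
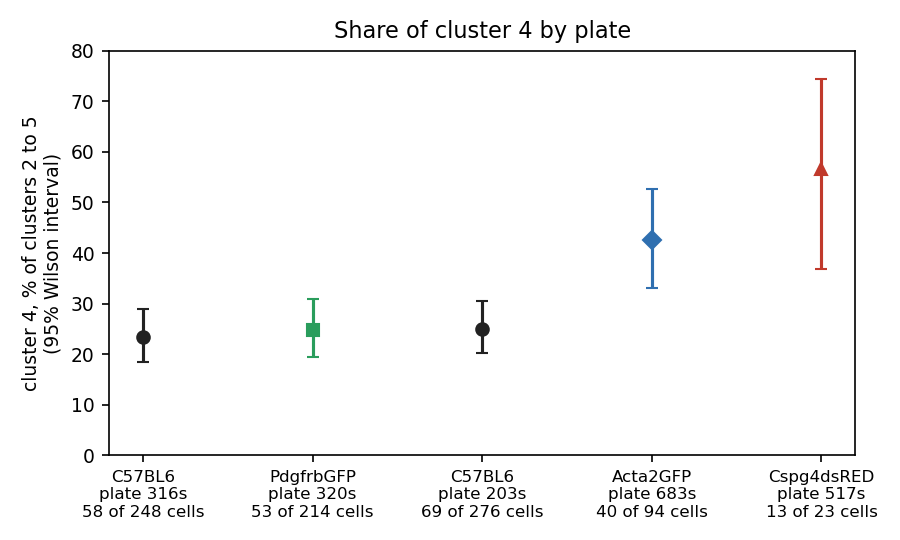
Share of cluster 4 among the cells of clusters 2 to 5 on each plate with more than 1 cell, in percent, with 95% Wilson intervals. The 2 such plates of C57BL6 and the PdgfrbGFP plate lie between 23.4% and 25%, the Acta2GFP plate at 42.6% and the Cspg4dsRED plate at 56.5%.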

How the data were processed

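The authors deposited 1 table of raw counts, with a gene in each row and a single heart cell in each column (1279 cells, 233 of them in cluster 4 and 127 of those from C57BL6). Per the study's methods and the submitters' processing notes, the authors demultiplexed with bcl2fastq, aligned to GRCm38 with TopHat2 using Bowtie or Bowtie2, and counted with featureCounts from Subread. The authors filtered cells on depth, genes, spike-in and mitochondrial share and on endothelial or immune signatures, and removed cells with many genes as potential doublets. No further caller was run. The methods name a samtools step against doublets. Whether it took out duplicate reads, the release of the annotation used for counting and the strand setting are not given in the sources used here. The highest count was 4579, and 45 genes exceeded 1 read per exonic base in some cell, with at most 1.93, so differences of highly expressed genes may be compressed. Clusters came from the authors' labels and had been made from the same counts.

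Spike-ins were left out, gene names and coordinates came from GENCODE M21 (46005 of 46517 genes matched), and no cell was dropped. Counts were summed per strain and side where both sides had 3 cells or more, filtered with filterByExpr (minimum count 10), TMM normalised and fitted with edgeR 4.0.16 in R 4.3.3 (quasi-likelihood F test, Benjamini-Hochberg adjustment over all genes tested, threshold 0.05). The SE is the absolute log2 difference divided by the square root of F. CPM are 1e6 times the share of counts without spike-ins, and differences within a strain used a pseudocount of 1 CPM. Since reads of 1 molecule cannot be told apart here, intervals cover counting error only. The sign-flip test over 4 strains cannot give a p below 0.125.

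Named genes were the 6 markers, genes of the lists, and per comparison up to 15 (against clusters 2, 3 and 5) or 5 genes per direction with an adjusted p under 0.05, the same direction in every strain, a count in 30% of cells and 20 CPM on the higher side. None passed against clusters 2, 3 and 5 or between captures, so further genes there were named by sums or plates that did not overlap, a rule chosen after the values were seen. Of the 15 higher genes ranked by fitted difference, 1 is not reported here. The members and lists were chosen with earlier results of these data known. Both sums of a strain came from the same plates, but for 1 comparator cell of C57BL6 on a further plate. Their deviations from the group means correlated at 0.114 to 0.242 over 14104 genes, so strain pairs the sums, and a fit with strain as a block was an alternative. Others were DESeq2 1.42.0, its size factors in edgeR, no filter, plate as the unit, each strain or plate left out, cluster 1 in the comparator, equal weight to clusters 2, 3 and 5 and, chosen after seeing the data, cells of 200000 to 450000 counts.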

Additional observations from a re-analysis of the deposited data

Results flagged for a closer look

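In 75 groups of 4 strains, 7 held a strain far from the other 3, where chance flags about 1 group in 20. In cluster 4, Mfap4 was at 1314 CPM in Acta2GFP against 1705 to 1769 in the others, and Cd200 at 398 CPM in Cspg4dsRED against 141.6 to 169.3. Adm was at 11.3 CPM in Cspg4dsRED against 70.2 to 80.7, and Ahsg at 15.7 CPM in PdgfrbGFP against 24.9 to 26.3. Median counts per cell of cluster 4 were 278290 in Acta2GFP against 356000 to 368780. In clusters 2, 3 and 5, Scara3 was at 66.03 CPM in C57BL6 against 36.3 to 41.3, and Slc10a6 at 34.6 CPM in Cspg4dsRED against 111.8 to 124.5.

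Clusters 6 to 8 entered no fit. In 1 or 2 of these clusters, 3 of the 6 markers were higher in every strain than in every sum of clusters 2, 3 and 5. Cd200 averaged 582 CPM in cluster 7 (520 to 632 over 3 strains) and 233.6 CPM in cluster 8 (154.3 to 338 over 4 strains). Nbl1 averaged 422 CPM in cluster 8 (310 to 558 over 4 strains), and Scara3 averaged 174.7 CPM in cluster 6 (123.6 to 240.8 over 3 strains).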

How the results depend on the processing

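Calls depended on the tool and the strains. DESeq2 called 1.29% of the tested genes against clusters 2, 3 and 5, 1.58% against cluster 2, 1.58% against cluster 3, 1.84% against cluster 5, 3.54% against cluster 1 and 0.492% between captures, where edgeR called 0.0%, 0.112%, 0.0595%, 0.0%, 0.761% and 0.0%. Without a filter on low counts, edgeR called 0.0184%, 0.0972%, 0.269% and 0.438% against clusters 2, 3 and 5, cluster 2, cluster 3 and cluster 5, and 0.0336% between captures. With plate as the unit it called 0.159%, 0.406%, 0.233% and 0.129% in those cluster comparisons. Leaving out 1 strain gave 0.0% to 0.00657% against clusters 2, 3 and 5, 0.0% to 0.0936% against cluster 2, 0.0% to 0.00704% against cluster 3 and 0.167% to 0.45% against cluster 1. With 2 strains, no strain was left out against cluster 5. The cause was not tested. With strain as a replicate block, 0.246% were called against cluster 3 and 0.357% against cluster 1, the lower calls against cluster 2 went from 3 to 6, and no other total of calls changed by over 1.5 times.

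Of 12 alternatives for each marker against clusters 2, 3 and 5, the one that added cluster 1 to the comparator turned Prg4 to -0.30 and Scara3 to -0.12, and the rest kept all 6 differences over 0. With equal weight to clusters 2, 3 and 5, Scara3 was at 2.588 ± 3.271 (SD, n = 4) and higher in 3 of 4 strains. Over 11 alternatives (10 for Schwann cell markers), 14 of 32 list medians took the other sign in at least 1, and the other 18, the adventitial and parenchymal lists among them, kept theirs. The adventitial median of 0.94 ran from 0.805 to 1.715 with 1 strain left out, the highest without Cspg4dsRED, and was 2.065 in cells of 200000 to 450000 counts. Of the 14, those whose median had lain more than 1 SD over strains from 0 turned for mural markers (0.26) and immune markers (0.11) in cells of 200000 to 450000 counts, a range chosen after seeing the data, for immune markers without Cspg4dsRED (0.14), for fibrillar collagens without a filter (-0.57) and for transcription factors with cluster 1 added (-0.044). The others were the fibroblast, smooth muscle, valve, endothelial, cardiomyocyte, protease, BMP, Wnt antagonist, scavenger receptor and retinoic acid lists, of which the valve list moved most, to -1.93 with cluster 1 added, and the endothelial list to 1.58 without Cspg4dsRED. The difference in median counts ran from -13663 to 53250 with 1 strain left out. The 10 comparator cells of Cspg4dsRED and the 2 strains of cluster 5 limit what could be seen.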
